A study of Rattus norvegicus with 9 samples.

Results

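The genes described here are 10 members of the immediate early response, named Fos, Fosb, Jun, Junb, Jund, Egr1, Nr4a1, Ier2, Ier3 and Dusp1. They were taken by symbol from the gene tables of 9 RNA sequencing libraries. All 10 were found, among 14607 genes listed in at least 1 library and 12343 listed in every library, and all 10 entered the tests, which covered 11761 genes. The libraries were made from neonatal rat cardiomyocytes, the contractile cells of the newborn heart, taken from wild-type rats of the SD strain and kept in primary culture with serum. All 3 groups were infected with a lentivirus for 16 h and cultured for 48 h more, so the controls carry a virus too. The group lenti-NC received the vector control, lenti-TCF7L2 received a virus labelled wild type and meant for overexpression, and lenti-shTCF7L2 received a virus with a short hairpin RNA for knockdown. Each group held 3 libraries, and no group is labelled as carrying a control hairpin. The labels used here do not give the species or promoter of the insert or the share of cells infected. Nor do they say whether the 3 libraries of a group came from separate cultures, so the p-values below measure only the spread between these samples, which may be technical.

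Immediate early genes are switched on within minutes of a stimulus such as serum, stretch or a hormone, without any need for new protein. Kinases of the ERK, JNK and p38 families act on factors already bound to their promoters, mainly serum response factor with its ELK partners, and CREB, which binds the cyclic AMP response element (CRE). Most of the products are transcription factors themselves, and in heart muscle cells their induction is a classical early mark of a growth stimulus. FOS and JUN proteins pair to form the factor AP-1. TCF7L2, the factor altered in these cultures, binds DNA and recruits β-catenin when Wnt signalling is active.

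The promoters of 7 of the 10 genes were matched in a RefSeq table of the GRCr8 build, and the 250 bases before the start of the gene were searched. Fos, Jun and Ier3 had no match. The full CRE, TGACGTCA, was found in Jund, Ier2 and Dusp1, and in 2.96% of the 9572 promoters of tested genes that were searched. The CRE core TGACG, which overlaps the full element, was found on either strand in 6 of the 7 (Junb, Jund, Egr1, Nr4a1, Ier2 and Dusp1) and in 28.4% of all. Below are the 3 promoters with a full CRE and that of Nr4a1, which holds 4 copies of the core, shown because these genes moved in different directions. Capitals mark the full CRE and its core, and each sequence runs 5′ to 3′ on the strand of the gene.

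Jund: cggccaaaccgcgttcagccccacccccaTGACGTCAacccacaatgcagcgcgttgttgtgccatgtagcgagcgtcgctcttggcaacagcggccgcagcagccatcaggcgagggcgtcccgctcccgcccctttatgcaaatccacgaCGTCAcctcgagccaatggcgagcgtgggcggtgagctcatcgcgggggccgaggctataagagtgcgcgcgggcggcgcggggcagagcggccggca
Ier2: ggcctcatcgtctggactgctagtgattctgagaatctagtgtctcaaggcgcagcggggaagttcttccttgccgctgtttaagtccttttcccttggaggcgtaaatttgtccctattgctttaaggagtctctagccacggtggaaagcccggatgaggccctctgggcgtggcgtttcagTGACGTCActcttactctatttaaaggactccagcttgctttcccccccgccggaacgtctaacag
Nr4a1: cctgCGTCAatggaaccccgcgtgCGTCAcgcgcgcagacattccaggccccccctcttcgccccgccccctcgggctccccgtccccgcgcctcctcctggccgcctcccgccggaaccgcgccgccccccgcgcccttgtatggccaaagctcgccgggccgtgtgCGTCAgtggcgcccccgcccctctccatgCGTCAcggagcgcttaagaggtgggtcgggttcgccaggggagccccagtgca
Dusp1: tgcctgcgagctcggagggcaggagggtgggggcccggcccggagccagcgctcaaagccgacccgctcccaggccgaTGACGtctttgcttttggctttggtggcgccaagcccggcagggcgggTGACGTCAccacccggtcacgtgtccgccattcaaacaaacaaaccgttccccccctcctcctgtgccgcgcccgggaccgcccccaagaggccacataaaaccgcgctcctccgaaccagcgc

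The windows lie at chr16:18769772-18770021 on the minus strand for Jund, chr19:40399123-40399372 on the plus strand for Ier2, chr7:134259888-134260137 on the plus strand for Nr4a1 and chr10:17184603-17184852 on the plus strand for Dusp1, all in GRCr8. Counted back from the start of the gene, the full CRE spans bases -221 to -214 in Jund, -66 to -59 in Ier2 and -124 to -117 in Dusp1. Jund has a further core at -98 to -94 and Dusp1 at -172 to -168, while the cores of Nr4a1 begin at -246, -226, -82 and -53. In Egr1 the search found 2 copies of the CArG box, the element of serum response factor, which was found in 1.10% of all promoters and in no other member searched. A TATA box, TATAAA on the strand of the gene, was found in Junb and in 4.49% of all. The AP-1 element TGANTCA, present in 4.45% of all, and the TCF/LEF element CTTTGAT, present in 1.96%, were in none of the 7 windows on either strand. These matches describe letters in a window and not bound sites.

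The libraries held between 15085922 and 16478295 expected counts, and 13294 to 13421 genes were listed in each. Levels below are given as CPM, counts scaled to a common library size, and levels of different genes are compared only as FPKM, which also divides by gene length. Tcf7l2 itself stood at 40.0, 36.4 and 34.1 CPM in the lenti-NC libraries (replicates 1, 2 and 3), at 142, 206 and 85.7 with lenti-TCF7L2, and at 25.6, 30.3 and 26.0 with lenti-shTCF7L2. It rose with the overexpression virus by 1.97 on the log2 scale (SE 0.27, adjusted p = 0.000846, edgeR). The 3 hairpin libraries lay below every control, at a log2 difference of -0.43 (SE 0.27), which did not pass the test (adjusted p = 0.511). The same difference passed with only the 6 libraries of the comparison in the fit (-0.43, SE 0.077, adjusted p = 0.000182), without lenti-TCF7L2 replicate 3 (-0.45, adjusted p = 0.0285), and with that library left out and a trend on gene length removed (-0.42, adjusted p = 0.0102). Among the marker lists, the summed level of cardiomyocyte markers was 42630 to 43830 CPM in lenti-NC, 19460 to 23790 in lenti-TCF7L2 and 40480 to 41160 in lenti-shTCF7L2. Of its 10 markers 9 were listed, Ttn being the exception. With lenti-TCF7L2, 7 of these 9 fell and none rose, where 18.0% of all tested genes rose and 13.8% fell. The summed level of 10 endothelial markers was 86.9 to 110 CPM in the controls and 175 to 252 under overexpression, where 9 of 10 rose. For 10 macrophage markers it was 38.5 to 40.7 and 72.0 to 80.7 CPM, and 5 of 7 tested rose. The other 3 macrophage markers, Aif1, C1qa and C1qb, had at most 10 counts in any library, and C1qb was at 0 in all lenti-NC libraries. With the hairpin virus the same sums were 90.7 to 91.8 and 35.2 to 38.6 CPM. Fibroblast markers summed to 52390 to 53900 CPM in lenti-NC, 45220 to 64220 in lenti-TCF7L2 and 51650 to 54000 in lenti-shTCF7L2, and smooth muscle and pericyte markers to 7771 to 7886, 7151 to 8236 and 7560 to 7726 CPM. With lenti-TCF7L2, 5 of 10 fibroblast markers rose and 1 fell, and 2 of 10 smooth muscle and pericyte markers rose. Without lenti-TCF7L2 replicate 3, 8 fibroblast markers rose and 1 fell, while 4 smooth muscle and pericyte markers rose and 2 fell. That fit called 21.2% of all genes higher and 21.5% lower. With lenti-shTCF7L2, where 1.32% of all genes rose and 2.32% fell, 3 fibroblast markers fell and 1 macrophage and 1 smooth muscle marker rose. No cardiomyocyte or endothelial marker passed in this edgeR fit of 9 libraries or in DESeq2, which called 645 of all genes. At an unadjusted p under 0.05 were 0 cardiomyocyte markers, 1 endothelial marker and 1887 of all 11761 genes tested. In that comparison 7 fibroblast markers fell and 1 rose without lenti-TCF7L2 replicate 3, a fit that called 6.51% of all genes higher and 10.9% lower. The same fit called 1 endothelial, 1 macrophage and 2 smooth muscle and pericyte markers higher, and 0 cardiomyocyte markers. With a trend on gene length removed instead, 1 endothelial marker was called higher, and 989 of all genes were called. The part of these shifts in the differences of the immediate early genes was not tested. One library, lenti-TCF7L2 replicate 3, stood furthest apart by gene length. Its genes of at most 1000 bases had a median log2 difference from the lenti-NC mean of 0.49, those over 8000 bases -0.98, and those in the length range of the immediate early genes (1114 to 3251 bases) 0.14. Replicate 1 of that group went the same way to a smaller extent, at 0.14 for the short genes and -0.33 for the long. Replicate 2 was at -0.07 and -0.01.

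With lenti-TCF7L2, 6 of the 10 genes rose against the control virus, namely Fosb, Nr4a1, Ier2, Junb, Egr1 and Jund. Jun and Dusp1 fell, and Fos and Ier3 did not pass the test (adjusted p under 0.05 over all genes tested). Over all tested genes, 18.0% rose and 13.8% fell in this comparison. The 2 groups did not overlap for 8 of the 10 genes, against 46.8% of all genes. The median log2 difference of the 10 was 0.58, against 0.03 over all genes. With lenti-shTCF7L2, Nr4a1 and Ier3 rose and Fos fell against the same controls, where 1.32% of all genes rose and 2.32% fell. Here the groups did not overlap for 6 of the 10, against 40.9% of all, and the median log2 difference was -0.03 against 0.01. In these bulk samples fewer cells of a type and less RNA per cell cannot be told apart. The calls with the hairpin virus depended on which libraries entered the fit, while the log2 differences changed little. Leaving out 1 library gave -0.61 to -0.51 for Fos, 0.39 to 0.47 for Nr4a1 and 0.35 to 0.41 for Ier3. A fit of only the 6 libraries compared called 6 of the 10 genes (3 higher and 3 lower). It called 3294 of all genes, against 428 in the fit of 9 libraries. With any 1 lenti-NC or lenti-shTCF7L2 library left out, edgeR called none of the 10 genes, and 88 to 180 of all genes. Of the 10, 5 had an unadjusted p under 0.05 each time. In the fit of 9 libraries 5 had one too, as did 1887 of all 11761 genes tested. DESeq2 on all libraries called 4 of the 10, and 645 of all genes. Only Nr4a1 was called without lenti-TCF7L2 replicate 1, and 5 genes were called without lenti-TCF7L2 replicate 2 or without replicate 3 (Fos, Egr1 and Dusp1 lower, Nr4a1 and Ier3 higher). Over all genes, 340 were called without replicate 1 and 646 without replicate 2 of that group. Without replicate 3 the calls over all genes rose too, to 6.51% higher and 10.9% lower.

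**Figure D1:**
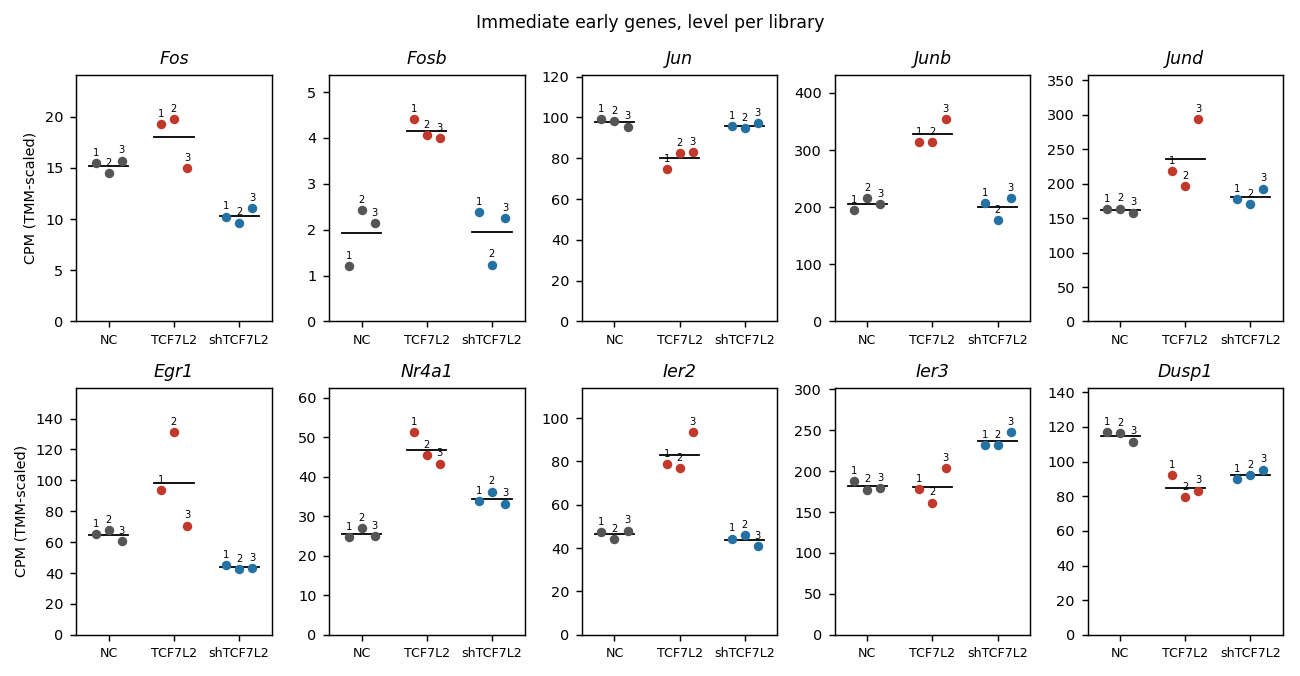
Level of each immediate early gene in CPM (linear axes from 0) in the 9 libraries, with points numbered by replicate and a line at the mean of the 3 libraries of a group. Nr4a1 was highest with lenti-TCF7L2 and lowest with lenti-NC in every library, while Dusp1 was lower than in every control with either virus, between 79.6 and 95.4 CPM against 112 to 117.

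The FOS family supplies the partners that cannot pair among themselves. Fos, the founding member, stood at 15.5, 14.5 and 15.7 CPM in lenti-NC, at 19.3, 19.8 and 15.0 with lenti-TCF7L2, and at 10.2, 9.65 and 11.1 with lenti-shTCF7L2. The hairpin libraries were all below the controls, and of the overexpression libraries replicates 1 and 2 were above them and replicate 3 among them. Fos fell with the hairpin virus by 0.56 on the log2 scale (SE 0.13, adjusted p = 0.0462). That call was lost with no filter on low counts (adjusted p = 0.0546), with the length trend removed (0.0528), in limma on unfiltered FPKM (0.0698), and without any 1 lenti-NC or lenti-shTCF7L2 library or lenti-TCF7L2 replicate 1 (0.0673 to 0.206). Against lenti-NC the difference with lenti-TCF7L2 was 0.24 (SE 0.12, adjusted p = 0.160). Without lenti-TCF7L2 replicate 3 it was 0.34 and passed (adjusted p = 0.0102).

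Fosb encodes a second FOS protein and was the least abundant of the 10. It had 18, 36 and 32 counts in the controls, 70, 64 and 67 under overexpression, and 36, 19 and 34 under the hairpin, which is 1.21, 2.43 and 2.14 CPM, then 4.41, 4.07 and 4.003, then 2.38, 1.24 and 2.26. Every overexpression library was above every other library, while the control and hairpin libraries overlapped. Fosb rose with lenti-TCF7L2 by 1.11 (SE 0.28, adjusted p = 0.0161), or 2.16-fold, the largest log2 difference among the 10 in that comparison and the least precise. The call ended when replicate 1 of lenti-NC or replicate 1 of lenti-TCF7L2 was left out (adjusted p = 0.0537 and 0.0511). Under the hairpin its log2 difference was 0.02, with a 95% interval from -0.67 to 0.71.

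The JUN family forms the other side of AP-1. Jun, the strongest activator of the family, stood at 99.2, 98.4 and 95.5 CPM in lenti-NC, at 74.6, 82.5 and 83.1 with lenti-TCF7L2, and at 95.8, 94.8 and 97.1 with lenti-shTCF7L2. The overexpression libraries were below all others, and the other groups overlapped. Jun fell with lenti-TCF7L2 by 0.29 (SE 0.07, adjusted p = 0.0103). The log2 difference with the hairpin virus was -0.03 (95% interval -0.17 to 0.12, adjusted p = 0.927).

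Junb, whose product can oppose JUN at shared target genes, went the other way. It was found at 195, 215 and 205 CPM in lenti-NC, at 314, 314 and 354 with lenti-TCF7L2, and at 207, 177 and 216 with lenti-shTCF7L2. Every overexpression library exceeded all 6 others. The rise was 0.68 on the log2 scale (SE 0.09, adjusted p = 0.000854), or 1.60-fold, and the call held with each library left out. The hairpin difference was -0.04 (95% interval -0.24 to 0.17).

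Jund, the family member usually present at a steady level in resting cells, was at 163, 164 and 158 CPM in lenti-NC, at 218, 197 and 294 with lenti-TCF7L2, and at 178, 170 and 193 with lenti-shTCF7L2. All libraries of both TCF7L2 viruses lay above the controls, and lenti-TCF7L2 replicate 3 was far above its own group. Jund rose with lenti-TCF7L2 by 0.55 (SE 0.13, adjusted p = 0.0141). Without replicate 3 of that group the difference was 0.34 and remained a call, and without lenti-NC replicate 3 the adjusted p was 0.0539. With only the 6 libraries of the comparison in the fit the call was lost (0.54, adjusted p = 0.0553). The difference with the hairpin virus, 0.16 (SE 0.13), did not pass (adjusted p = 0.676), but passed with only its 6 libraries in the fit (adjusted p = 0.0139).

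With Jun lower and Junb and Jund higher, the share of Jun in the JUN family fell and that of Junb rose. In FPKM, the ratio of Junb to Jun was 3.37, 3.77 and 3.70 in the controls, 7.24, 6.55 and 7.34 under overexpression, and 3.72, 3.21 and 3.82 under the hairpin. The overexpression libraries were apart from the other 6, which were mixed. Jun made up 13.1% ± 0.40 of the summed FPKM of the 3 genes in lenti-NC (SD, n = 3), 7.49% ± 0.83 with lenti-TCF7L2 and 12.5% ± 0.77 with lenti-shTCF7L2. Jund made up 39.8% ± 0.96 in lenti-NC and 40.05% ± 3.6 with lenti-TCF7L2. The summed FPKM of the family was 230 to 241 in lenti-NC, 320 to 399 with lenti-TCF7L2 and 230 to 263 with lenti-shTCF7L2. These FPKM carry no TMM scaling. Summed over all genes, FPKM was 509452 to 525002 in lenti-NC and 544448, 502727 and 617040 in lenti-TCF7L2 replicates 1, 2 and 3. The ratio was not tested apart from the differences of the genes themselves. Protein amounts were not measured.

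**Figure D2:**
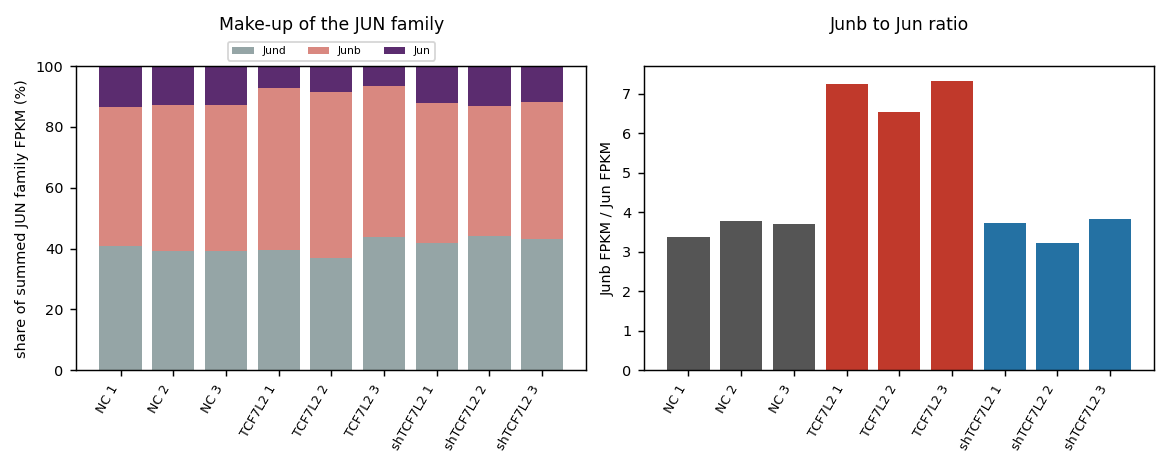
Left, the share of Jun, Junb and Jund in the summed FPKM of the 3 genes, as stacked percentages per library; right, the FPKM of Junb divided by that of Jun per library, coloured by group (axes from 0). The ratio lies between 6.55 and 7.34 in the 3 lenti-TCF7L2 libraries and between 3.21 and 3.82 in the other 6.

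Egr1 encodes a zinc finger factor that serum response factor controls in many cells. It stood at 65.1, 67.7 and 60.8 CPM in lenti-NC, at 93.8, 131 and 70.7 with lenti-TCF7L2, and at 45.2, 42.5 and 43.1 with lenti-shTCF7L2. The 3 groups did not overlap, and the overexpression libraries were spread more widely than the others. Egr1 rose with lenti-TCF7L2 by 0.61 (SE 0.19, adjusted p = 0.0348), a call that held in only 2 of the 9 fits with 1 library left out, those without lenti-TCF7L2 replicate 2 or 3. It was lost without any 1 of the other 7 libraries (adjusted p from 0.0570 to 0.110), and the value was 0.34 without lenti-TCF7L2 replicate 2. With a trend on gene length removed from each library it was 0.52 (adjusted p = 0.103). The log2 difference with the hairpin virus was -0.57 (SE 0.19) and did not pass (adjusted p = 0.161). That test takes its spread from all 9 libraries. With only the 6 libraries of each comparison in the fit, the hairpin difference passed (adjusted p = 1.11e-07) and the rise with lenti-TCF7L2 lost its call (0.60, adjusted p = 0.0937). Within the lenti-TCF7L2 group Tcf7l2, Egr1 and Fos had the same order over the libraries, highest in replicate 2 and lowest in replicate 3. Jund, Ier2 and Ier3 had the reverse order, as did Junb with replicates 1 and 2 nearly equal. A group of 3 libraries allows no test of these orders.

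Nr4a1, an orphan nuclear receptor also called NUR77, stood at 24.8, 27.0 and 25.0 CPM in lenti-NC, at 51.3, 45.6 and 43.4 with lenti-TCF7L2, and at 33.9, 36.3 and 33.3 with lenti-shTCF7L2. The groups did not overlap, with the hairpin libraries between the other two. Nr4a1 rose with lenti-TCF7L2 by 0.87 (SE 0.09, adjusted p = 0.000226), or 1.83-fold, and this call held with each library left out. It rose with the hairpin virus by 0.43 (SE 0.09, adjusted p = 0.0326), a call lost without any 1 lenti-NC or lenti-shTCF7L2 library (highest adjusted p = 0.164). All 6 libraries of the TCF7L2 viruses were thus above all 3 controls.

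Ier2 and Ier3 share a name and not a family. Ier2, a small nuclear protein of the early growth response, was at 47.4, 44.1 and 48.1 CPM in lenti-NC, at 78.8, 76.8 and 93.5 with lenti-TCF7L2, and at 44.4, 46.1 and 40.8 with lenti-shTCF7L2. The overexpression libraries were above all others, and the control and hairpin libraries overlapped. Ier2 rose by 0.84 (SE 0.09, adjusted p = 0.000355), or 1.78-fold, in a call that held with each library left out. The log2 difference under the hairpin was -0.09 (95% interval -0.30 to 0.13).

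Ier3, also called IEX-1 and linked to cell survival under stress, was at 188, 177 and 179 CPM in lenti-NC, at 178, 162 and 203 with lenti-TCF7L2, and at 231, 232 and 247 with lenti-shTCF7L2. Here the hairpin libraries were above all others, and the control and overexpression libraries overlapped. Ier3 rose with the hairpin virus by 0.38 (SE 0.09, adjusted p = 0.0488), lost without any 1 lenti-NC or lenti-shTCF7L2 library and without lenti-TCF7L2 replicate 1 (highest adjusted p = 0.207). It was also lost with RLE or upper-quartile scaling and with no filter or a stricter one (adjusted p from 0.0507 to 0.0685). The difference with lenti-TCF7L2 was -0.003 (95% interval -0.20 to 0.19, adjusted p = 0.982). This difference passed in 1 of 12 other settings, with the length trend removed (-0.16, adjusted p = 0.0391), and in 0 of 9 with a library left out. Its sign was reversed in 6 of these 21.

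Dusp1 encodes a phosphatase that switches off ERK, JNK and p38 and so ends the response that induced it. It stood at 117, 116 and 112 CPM in lenti-NC, at 92.0, 79.6 and 83.2 with lenti-TCF7L2, and at 90.0, 92.3 and 95.4 with lenti-shTCF7L2. The controls were above all 6 other libraries, and the groups of the 2 TCF7L2 viruses overlapped. Dusp1 fell with lenti-TCF7L2 by 0.44 (SE 0.07, adjusted p = 0.00219), and the call held with each library left out. For the hairpin it was -0.31 on the log2 scale (SE 0.07, adjusted p = 0.0501), just short of the threshold. It passed without lenti-TCF7L2 replicate 2 or 3, and in 6 of 12 other settings.

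**Figure D3:**
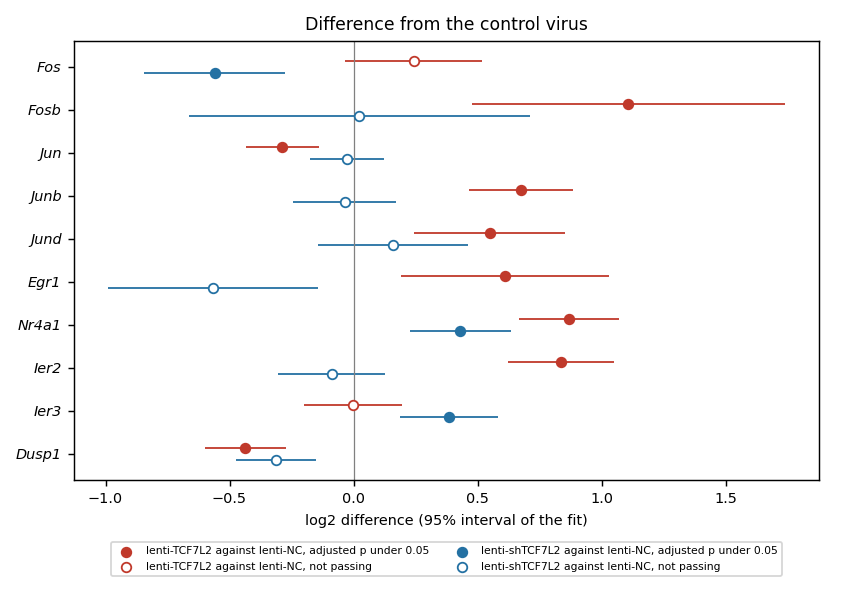
Log2 difference from lenti-NC for each gene with its 95% interval from the edgeR fit, red for lenti-TCF7L2 and blue for lenti-shTCF7L2; filled points passed the test at an adjusted p under 0.05. Nr4a1 was called higher with both viruses, Fos at -0.56 and Ier3 at 0.38 were called with the hairpin virus, and both comparisons share the lenti-NC libraries.

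The comparisons with lenti-NC share their control libraries, so the TCF7L2 viruses were also compared with each other. In lenti-TCF7L2 against lenti-shTCF7L2, 6 of the 10 genes were higher and 2 lower, where 18.4% of all genes were higher and 14.7% lower. The groups did not overlap for 9 of 10, against 47.2% of all. Egr1 was higher by 1.18 on the log2 scale (SE 0.19, adjusted p = 0.00157), Fosb by 1.09 (SE 0.28, adjusted p = 0.0161), Ier2 by 0.92 (SE 0.09, adjusted p = 0.000155) and Fos by 0.80 (SE 0.13, adjusted p = 0.00136). Junb was higher by 0.71 (SE 0.09) and Nr4a1 by 0.44 (SE 0.09). Jun was lower, at -0.26 (SE 0.07, adjusted p = 0.0149), and Ier3 at -0.39 (SE 0.09, adjusted p = 0.00892). Fosb lost its call without lenti-TCF7L2 replicate 1 or lenti-shTCF7L2 replicate 2, and Jun without lenti-shTCF7L2 replicate 3 (adjusted p = 0.0512, 0.0566 and 0.0557). Jun also lost it with only the 6 libraries compared (adjusted p = 0.0600). Jund, at 0.39 (SE 0.13, adjusted p = 0.0518), and Dusp1, at -0.12 (95% interval -0.29 to 0.04), did not pass. Jund passed without lenti-TCF7L2 replicate 2 (0.50) or 3 (0.20), and in 6 of 12 other settings.

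Per unit of length the genes covered a wide range. In lenti-NC, Ier3 was the most abundant at 162 ± 5.4 FPKM (SD, n = 3), above 96.0% of tested genes, followed by Junb at 111 ± 5.5, Jund at 93.2 ± 1.8, Dusp1 at 58.1 ± 1.5 and Egr1 at 41.7 ± 2.3. Jun at 30.6 ± 0.63 and Ier2 at 29.3 ± 1.3 overlapped, as did Nr4a1 at 10.0 ± 0.46 and Fos at 9.43 ± 0.41. Fosb came last at 0.58 ± 0.19, above 6.4% of tested genes. With lenti-TCF7L2 Junb had the highest mean, 183 ± 12 FPKM, overlapping Ier3 at 167 ± 19, which in turn overlapped Jund at 141 ± 30. Egr1 at 65.9 ± 21 and Ier2 at 54.1 ± 5.8 also overlapped and had higher means than Dusp1, at 44.4 ± 3.3, whose libraries overlapped those of Egr1. With lenti-shTCF7L2 the order began with Ier3 at 216 ± 7.7 FPKM and Egr1 had dropped behind Jun, at 28.8 ± 0.86 against 30.7 ± 0.24. In all 3 groups Nr4a1, Fos and Fosb had the lowest means.

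Within groups the genes did not move as 1 block. After subtraction of group means, Jund and Ier3 had a Pearson r of 0.95 over the 9 libraries and Egr1 and Ier3 one of -0.90, while Egr1 and Fos had 0.73. Ier2 and Fos had a residual r of -0.81. Without lenti-TCF7L2 replicate 3, with group means taken anew over 8 libraries, these values were 0.84, -0.69, 0.017 and -0.38 in the same order. Points of 1 library share its depth and its composition. In lenti-TCF7L2 replicate 3, Jun, Junb, Jund, Ier2 and Ier3 were at their highest and Fos, Fosb, Egr1 and Nr4a1 at their lowest of the 3 libraries of that group. That library is the one set furthest apart by gene length, and the part of gene length in these values was not tested.

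Outside the 10 genes, 42 other immediate early genes had been listed, of which 40 were tested, Egr3 and Egr4 falling below the filter. With lenti-TCF7L2, 16 of the 40 rose (40.0%, against 18.0% of all tested genes) and 6 fell (15.0%, near the 13.8% of all), with a median log2 difference of 0.29 against 0.03 over all genes. Ier5l, a relative of Ier2, rose by 0.83 (96.4 ± 1.3 against 54.2 ± 1.6 CPM, SD, n = 3) and Myc, which drives cell growth, by 0.88 (43.0 ± 2.0 against 23.4 ± 0.97 CPM). Ier5, also a relative of Ier2 and named after its value was seen, fell by 0.31 (SE 0.07, adjusted p = 0.0109). Phlda1, which dampens growth factor signalling, fell by 0.57 (102 ± 1.4 against 151 ± 2.7 CPM). Adjusted p was 9.93e-05 for Ier5l, 0.000184 for Myc and 0.000182 for Phlda1. Egr2, a relative of Egr1 singled out after its value was seen, rose by 0.70 (SE 0.16, adjusted p = 0.0106), which missed the threshold when lenti-NC replicate 1 was left out (adjusted p = 0.0504). With the hairpin virus, Myc rose by 0.47 (SE 0.09, adjusted p = 0.0203), Phlda1 fell by 0.29 (SE 0.06, adjusted p = 0.0223) and the other 38 did not pass, where 1.32% of all genes rose and 2.32% fell. Myc lost its call without any 1 lenti-NC library or without lenti-shTCF7L2 replicate 1 or 2, and Phlda1 without any 1 lenti-NC or lenti-shTCF7L2 library (adjusted p up to 0.106 and 0.136). Without lenti-TCF7L2 replicate 3, 8 of the 40 rose and 8 fell, where 6.51% of all genes rose and 10.9% fell. Between the TCF7L2 viruses 20 of 40 were higher with lenti-TCF7L2 and 7 lower, where 18.4% of all genes were higher and 14.7% lower. Rgs2, an inhibitor of Gq signalling, was higher by 1.08 (SE 0.12), Ier5l by 0.87 (SE 0.07) and Cyr61, a secreted matrix protein, by 0.59 (SE 0.07).

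Proteins that pair or compete with FOS and JUN formed a list of 15, with 13 tested. Fosl1, Fosl2, Atf3 and Maff are also on the list just described. With lenti-TCF7L2, 6 of the 13 rose and 1 fell (46.2% and 7.69%, against 18.0% and 13.8% of all tested genes), at a median of 0.40. Maff, a small MAF protein without an activation domain, rose by 1.17 (SE 0.13, adjusted p = 0.000369), from 19.7 ± 0.97 to 44.4 ± 8.5 CPM. Fosl1, a FOS relative, rose by 0.67 (SE 0.10, adjusted p = 0.00133), from 6.43 ± 0.36 to 10.3 ± 0.25 CPM. Mafk, a second small MAF protein, fell by 0.51 (SE 0.08, adjusted p = 0.00155), from 100 ± 2.5 to 70.5 ± 6.5 CPM. None of the 13 passed with the hairpin virus in edgeR, where 1.32% of all genes rose and 2.32% fell. Of the 13, 3 had an unadjusted p under 0.05, as did 1887 of all 11761 genes tested. In DESeq2, 1 of the 13 passed, and 645 of all genes. The most abundant, Atf4, was at a log2 difference of 0.32 (adjusted p = 0.241), and Mafk at -0.08 (adjusted p = 0.722). Without lenti-TCF7L2 replicate 3, where 6.51% of all genes rose, 2 of 13 rose, Atf4 among them (0.30, adjusted p = 0.00773). Between the TCF7L2 viruses, where 18.4% of all genes were higher and 14.7% lower, 5 of 13 were higher with lenti-TCF7L2, including Maf at 1.20 (SE 0.24) and Maff at 0.67 (SE 0.13), and 1 was lower, Mafk at -0.43 (SE 0.08).

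Of 34 kinases and nuclear factors that act before the immediate early genes, 30 were tested. With lenti-TCF7L2, 6 rose and 4 fell, at a median of -0.01. These shares, 20.0% and 13.3%, lay near the 18.0% and 13.8% of all tested genes. Elk3, an ETS factor that binds with serum response factor, rose by 0.60 (SE 0.07, adjusted p = 0.000373). Mapk7, which encodes ERK5, rose by 0.49 (SE 0.07, adjusted p = 0.00124) and Mapk3, which encodes ERK1, by 0.39 (SE 0.08, adjusted p = 0.00577). Srf, the gene of serum response factor and singled out for that role after its value was seen, fell by 0.36 (SE 0.10, adjusted p = 0.0268), a call lost without any 1 lenti-NC library (adjusted p from 0.0659 to 0.0823) and with only the 6 libraries compared (0.0656). Under the hairpin none of the 30 passed in edgeR, where 1.32% of all genes rose and 2.32% fell. Of the 30, 4 had an unadjusted p under 0.05, as did 1887 of all 11761 genes tested. In DESeq2, 1 of the 30 passed, and 645 of all genes. Mapkapk2, which encodes a kinase activated by p38, was among the most abundant and stood at 0.18 (adjusted p = 0.132). Without lenti-TCF7L2 replicate 3, 3 of 30 rose and 2 fell, where 6.51% of all genes rose and 10.9% fell, with Mapkapk2 among them at 0.17 (adjusted p = 0.0316). Between the TCF7L2 viruses 5 of 30 were higher with lenti-TCF7L2 (16.7%, against 18.4% of all genes) and 3 lower (10.0%, against 14.7%). Without that library they were 9 and 4, where 23.3% of all genes were higher and 22.3% lower. Elk3 was higher by 0.73 (SE 0.07), Mapk3 by 0.41 (SE 0.08) and Mapk7 by 0.40 (SE 0.07).

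Inhibitors that end the response were tested as 19 genes beside Dusp1, and with lenti-TCF7L2 3 rose and 6 fell, at a median of -0.11. The 3 make up 15.8%, near the 18.0% of all tested genes, and the 6 make up 31.6%, against 13.8%. Nab2, a corepressor of EGR proteins, rose by 0.83 (SE 0.10, adjusted p = 0.000472), from 103 ± 2.8 to 182 ± 26 CPM. Spry1, a sprouty inhibitor of receptor kinase signalling, rose by 0.43 (SE 0.08, adjusted p = 0.00309). Dusp5, a nuclear phosphatase of ERK, fell by 0.63 (SE 0.11, adjusted p = 0.00290), from 25.4 ± 0.22 to 16.4 ± 2.3 CPM. With the hairpin virus 1 of the 19 rose and 1 fell, where 1.32% of all genes rose and 2.32% fell. Dusp7, a cytoplasmic phosphatase of ERK, fell by 0.57 (SE 0.09, adjusted p = 0.0132) and Dusp3 rose by 0.33 (SE 0.07, adjusted p = 0.0303). Both calls were lost without any 1 lenti-NC or lenti-shTCF7L2 library, with adjusted p up to 0.0737 for Dusp7 and 0.153 for Dusp3. In the fit without lenti-TCF7L2 replicate 3, 2 of 19 rose and 7 fell, where 6.51% of all genes rose and 10.9% fell. Between the TCF7L2 viruses 6 of 19 were higher with lenti-TCF7L2 and 4 lower (31.6% and 21.1%, against 18.4% and 14.7% of all), with Nab2 at 0.89 (SE 0.10), Dusp7 at 0.82 (SE 0.09) and Spry1 at 0.71 (SE 0.08).

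Genes known as targets of AP-1 or EGR1 in other cells had a median log2 difference of 0.82 with lenti-TCF7L2, with 15 of 19 tested higher and 1 lower (78.9% and 5.26%, against 18.0% and 13.8% of all tested genes). Mmp12, a metalloproteinase best known from macrophages, rose by 1.94 (SE 0.10, adjusted p = 2.37e-05), from 28.9 ± 2.3 to 111 ± 9.0 CPM. Spp1, which encodes osteopontin and is also abundant in macrophages, rose by 1.35 (SE 0.07, adjusted p = 2.41e-05), from 141 ± 11 to 361 ± 11 CPM. F3, the gene of tissue factor, rose by 0.74 (SE 0.08, adjusted p = 0.000247), from 52.8 ± 4.0 to 88.0 ± 4.1 CPM. In the same comparison 5 of 7 tested macrophage markers rose, at a median of 0.97, and 9 of 10 endothelial markers, at a median of 1.81; their part in the levels of these genes was not tested. With the hairpin virus 2 of 19 rose and 3 fell, against 1.32% and 2.32% of all genes. Plaur, the urokinase receptor, rose by 0.61 (SE 0.09, adjusted p = 0.00932), Cd44, a hyaluronan receptor, rose by 0.43 (SE 0.06, adjusted p = 0.00975) and F3 fell by 0.51 (SE 0.08, adjusted p = 0.00975). Plaur lost its call without lenti-NC replicate 2 or 3 or any 1 lenti-shTCF7L2 library, Cd44 without replicate 2 or 3 of either group, and F3 without lenti-NC replicate 3 or any 1 lenti-shTCF7L2 library (highest adjusted p = 0.0613, 0.0647 and 0.0575). Without lenti-TCF7L2 replicate 3, 6 of 19 rose and 4 fell, against 6.51% and 10.9% of all genes. Between the TCF7L2 viruses 11 of 19 were higher with lenti-TCF7L2 and 1 lower (57.9% and 5.26%, against 18.4% and 14.7% of all), with Mmp12 at 1.93 (SE 0.10), Spp1 at 1.73 (SE 0.07) and F3 at 1.25 (SE 0.08).

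**Figure D4:**
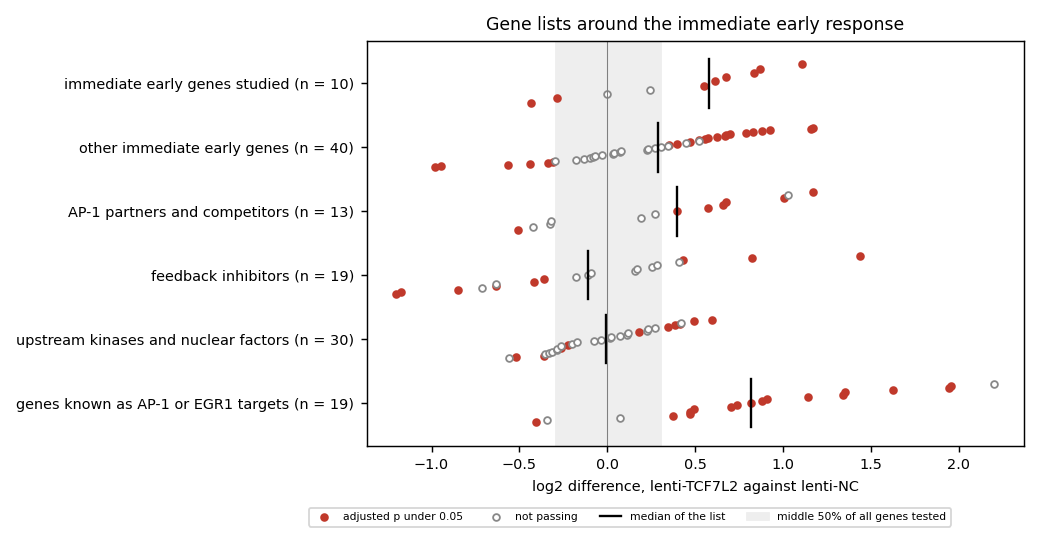
Log2 difference with lenti-TCF7L2 against lenti-NC for each tested gene of 6 lists, filled where the adjusted p was under 0.05, with a bar at the median of the list and a band for the middle 50% of all tested genes (-0.29 to 0.31). The medians run from -0.11 for the feedback inhibitors to 0.82 for the known AP-1 or EGR1 targets.

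The genes whose log2 CPM followed Fos and Ier2 most closely over the 9 libraries were sought among 10212 genes with a mean of at least 50 counts. For Fos these were Kctd11 (Pearson r 0.99), Dusp7 (0.98), Fam131b (0.98), Sidt2 (0.98) and Hdac5 (0.97). Their log2 differences with the hairpin virus ran from -0.26 for Fam131b to -0.57 for Dusp7. For Ier2 they were Slc9a3r1, Cacnb3, Nab2, Sf3b4 and Mospd3, each with r of 0.99. Their log2 differences with lenti-TCF7L2 ran from 0.46 for Sf3b4 to 0.89 for Slc9a3r1. The choice by likeness over all libraries fixes that these genes share the group pattern of Fos or Ier2, so their differences are a description with no test. These values describe 9 libraries in 3 groups that share depth and composition, with the group differences included.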

How the data were processed

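RNA selected with oligo(dT) beads was sequenced from 9 libraries in 3 groups, taken from the sample titles. Per the file headers, each deposited table holds a library's expected counts (fragments estimated for each gene, without normalisation), its FPKM values (expected counts divided by gene length and library size) and each gene's length. The authors used build rn6, RSEM 1.3.1, Bowtie2, HISAT2 and DESeq2 1.4.5, per the submitters' processing notes, which give no role or order; whether counting used strand is not given in the sources used here. Genes not listed in a library were set to 0.

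Expected counts were rounded, filtered with filterByExpr (11761 genes kept, 2846 set aside), scaled by TMM and tested with edgeR 4.0.16 in R 4.3.3 (quasi-likelihood test, 2-sided, group as the only term, 9 libraries in 1 fit, 6 residual degrees of freedom). The threshold was 0.05 for p-values adjusted over all tested genes (Benjamini-Hochberg). Intervals are at 95% and come from the fit. Totals of 15085922 to 16478295 counts per library and 3 libraries per group limit the precision, and the biological coefficient of variation was 14.9%. The 10 genes, the lists, the motifs and the marker lists were chosen with earlier results of these data known, so no list is independent evidence. Genes named from a list were up to 3 with the smallest adjusted p in a comparison, or the 2 most abundant where none passed; Srf and Egr2 were added later, and 1 gene the rule names is not reported here.

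Other settings tried were upper-quartile or RLE scaling, a stricter filter (10 counts in 6 libraries) or none, DESeq2 1.42.0, limma-trend (3.58.1) on log2(FPKM + 1), with and without a minimum mean FPKM of 1, or on log2(FPKM + 0.1), a replicate block, only the 6 libraries compared, a lowess length trend (span 0.3) removed, and each library left out. List counts without lenti-TCF7L2 replicate 3 or with the length trend removed, and the shares of all genes and residual correlations without that library, were added after seeing the data. Residuals of same-numbered libraries correlated at -0.067 to 0.151, with 2 of 9 pairs over 0.1, so the numbers were not taken as pairs. The procedure was tested on simulated data. Coordinates of genes in rn6 were not used here.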

Additional observations from a re-analysis of the deposited data

How the results depend on the processing

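Against the main values for the 10 genes, 539 differences from other settings kept their direction and side of the threshold, 47 lost the call, 24 gained it and 14 changed sign. None of the 14 had been a call. For Ier3 with lenti-TCF7L2 there were 6. Upper-quartile scaling gave 0.0558, and limma on FPKM with pseudocount 0.1 gave 0.0402. Limma with pseudocount 1 gave 0.0401 both with and without the FPKM minimum. The other 2 were among the values with a library left out, which ran from -0.11 to 0.067. Under the hairpin there were 3 for Jun, all in limma. They were 0.00442 with pseudocount 1, both with and without that minimum, and 0.00455 with pseudocount 0.1. With a library left out, 3 values for Fosb (range -0.22 to 0.27) and 2 for Junb (-0.094 to 0.043) also changed sign under the hairpin. Of the 10 genes, 8 were called with lenti-TCF7L2 and 6 to 9 with a library left out. With lenti-shTCF7L2, 3 were called, against 1 with no filter, 6 with only the 6 libraries compared, 5 with the length trend and lenti-TCF7L2 replicate 3 removed, and 0 to 5 with a library left out. With the replicate block 0 were called by edgeR (5 at an unadjusted p under 0.05), and 244 of all genes. Lost with the block under the hairpin were Fos (-0.56, adjusted p = 0.112), Nr4a1 (0.43, 0.0745) and Ier3 (0.38, 0.0728), and beyond the 10 genes Myc (0.0631), Phlda1 (0.0732) and Dusp3 (0.0719). Calls over all genes in that comparison went from 428 to 645 (DESeq2), 3294 (6 libraries), 989 (length trend removed), 2614 (length trend and lenti-TCF7L2 replicate 3 removed) and 88 to 2056 (a library left out). With lenti-TCF7L2 they went from 3741 to 2321 (6 libraries) and 2430 to 5503 (a library left out), and between the TCF7L2 viruses from 3890 to 5936 (length trend and lenti-TCF7L2 replicate 3 removed). The cause of these shifts was not tested. Of 60 list counts under the added settings 17 moved by over 1.5 times. At 18 to 70 counts per library, depth limits Fosb most.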
